A study of Mus musculus with 24 samples.

Results

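The checkpoint ligands and phagocytosis signals described here are 10 genes whose products tell T cells, NK cells or macrophages to hold back: Cd274, Pdcd1lg2, Cd80, Cd276, Vtcn1, Vsir, Lgals9, Pvr, Nectin2 and Cd47. They were taken by gene symbol, with no threshold on their values, and each had 1 entry in each of the 3 count tables, out of 24034 symbols that the tables share. The tables hold bulk RNA-seq counts from mammary tumours of the mouse carcinoma lines 4T07, D2A1 and EMT6. All cells injected carried mCherry and a reporter that fuses mVenus with p27K, derived from the cell cycle inhibitor p27. In every group 250000 cells had been placed in a mammary fat pad of female Balb/cJ mice, and tumours were collected 14 days later. The 6 groups were p27K high cells, which the labels call quiescent cancer cells, and p27K negative cells, which they call proliferative, from 4T07, D2A1 and EMT6 tumours. Both gates came from the same 4 tumours in each line, giving 24 libraries from 12 tumours. The animals' age is not given in the sources used here, no untransduced tumour was among the samples, and each line was 1 sequencing run, so line and run cannot be told apart. The series title sets the question of how quiescent cancer cells resist T cells, and each gene was therefore compared between p27K high and p27K negative cells of a tumour.

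Checkpoint ligands sit on the surface of tumour or myeloid cells and bind receptors on lymphocytes. Cd274 and Pdcd1lg2 encode PD-L1 and PD-L2, the ligands of PD-1, and Cd80 encodes B7-1, which binds the activating receptor CD28 and the inhibitory receptor CTLA-4. Cd276 and Vtcn1 encode B7-H3 and B7-H4, relatives of these ligands, and Vsir encodes VISTA, which is best known from myeloid cells. Lgals9 encodes galectin-9, a secreted lectin that can bind TIM-3. Pvr and Nectin2 encode CD155 and CD112, adhesion molecules that engage the inhibitory receptors TIGIT and PVRIG and the activating receptor DNAM-1 on T and NK cells. Cd47 encodes the signal that engages SIRP-alpha on macrophages and restrains phagocytosis. PD-L1, PD-L2, B7-1 and VISTA are also made by macrophages and dendritic cells.

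The libraries held 27887221 to 45460880 counts in 4T07 p27K high cells and 28961831 to 35197694 in 4T07 p27K negative cells. In D2A1 they held 6727594 to 20174767 in p27K high and 1335433 to 15641189 in p27K negative cells, where the p27K negative libraries of 3 tumours stayed at or under 2110563 counts, and in EMT6 13769682 to 20142013 in p27K high and 16988365 to 17508301 in p27K negative cells. In 4T07 the p27K high library of tumour 2 stood apart, with 13500 genes detected against 15094 to 15370 in the other p27K high libraries. Several calls are therefore also given without this tumour. Mki67, a proliferation gene, fell in p27K high cells, with log2 changes of -6.52 ± 0.21 in 4T07, -5.92 ± 0.23 in D2A1 and -5.31 ± 0.09 in EMT6, and Cdkn1b, the p27 gene, to which reporter reads could add, rose by 0.89 ± 0.11, 0.46 ± 0.11 and 0.54 ± 0.04 (standard error, SE, n = 4 pairs). The carcinoma labels were set against 10 epithelial markers, whose summed CPM (counts scaled to library size by TMM) ran from 467 to 608 in p27K high and 584 to 712 in p27K negative cells of 4T07. It ran from 92.1 to 199 in p27K high and 59.8 to 636 in p27K negative cells of D2A1, and from 643 to 924 in p27K high and 807 to 1107 in p27K negative cells of EMT6. The 636 CPM came from D2A1 tumour 1, whose p27K negative library held 1335433 counts, against 176, 94.5 and 59.8 CPM in tumours 2, 3 and 4. Epcam averaged 2.98 CPM or less in every group, and Esrp1 had no counts in 4T07. The sum of 20 macrophage and monocyte markers was 215 to 249 CPM in p27K high and 756 to 1659 CPM in p27K negative cells of 4T07, and all 20 fell in p27K high cells. It was 146 to 186 CPM in p27K high and 73.0 to 136 CPM in p27K negative cells of D2A1, and 51.5 to 65.9 CPM in p27K high and 37.2 to 52.1 CPM in p27K negative cells of EMT6. In D2A1 1 of 10 tested markers rose and 1 fell, and Cd14, the one that rose, made up most of the sum, with 135 ± 19.7 CPM in p27K high and 58.6 ± 11.7 CPM in p27K negative cells (SD, n = 4), while Ctss fell. In EMT6 3 of 8 rose and 1 fell. Ptprc, which encodes the leukocyte protein CD45 that the sort stained, reached 12.8 CPM in p27K high and 39.9 CPM in p27K negative 4T07 cells, and no library of the other lines had more than 2.62 CPM. In such bulk samples, fewer cells of a type and less RNA per cell cannot be told apart.

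The ligands did not move as a block. Pvr was the ligand that rose in p27K high cells of all 3 lines. Vsir rose in D2A1 and EMT6, Cd47 rose in 4T07 and EMT6, and Lgals9 rose in EMT6. Cd276 fell in EMT6 and Pdcd1lg2 in 4T07. Cd274 was not called in any line. Calls were made at a Benjamini-Hochberg adjusted p under 0.05 in edgeR's quasi-likelihood test with the tumour as a block. The test sets the size of the gate difference against its variation between tumours, which edgeR estimates with information shared over genes. In 4T07, 9 of the 10 genes had enough counts to be tested, of which 2 rose, 1 fell and 6 were not called, where 45.7% of the 12849 genes tested were called (22.1% as rises, 23.6% as falls). In D2A1, 7 were tested, with 2 rises, no fall and 5 not called, against a background of 29.5% (14.9% rises, 14.7% falls), and in EMT6, 7 were tested, with 4 rises, 1 fall and 2 not called, against 49.2% (24.1% and 25.1%). In the joint fit of all 12 tumours, 9 were tested, with 3 rises, 1 fall and 5 not called, against 52.4% (28.3% and 24%). Gate changes are common in these tables, and only in EMT6 was the share of tested ligands called, 5 of 7, above the background. The number called was 6 in 4T07 without tumour 2 and 3 in EMT6 without tumour 4. The median log2 change of the tested ligands was 0.04, 0.13 and 0.20 in 4T07, D2A1 and EMT6 and 0.15 in the joint fit, beside 0.00, 0.02, 0.02 and 0.03 over all genes tested.

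**Figure D1:**
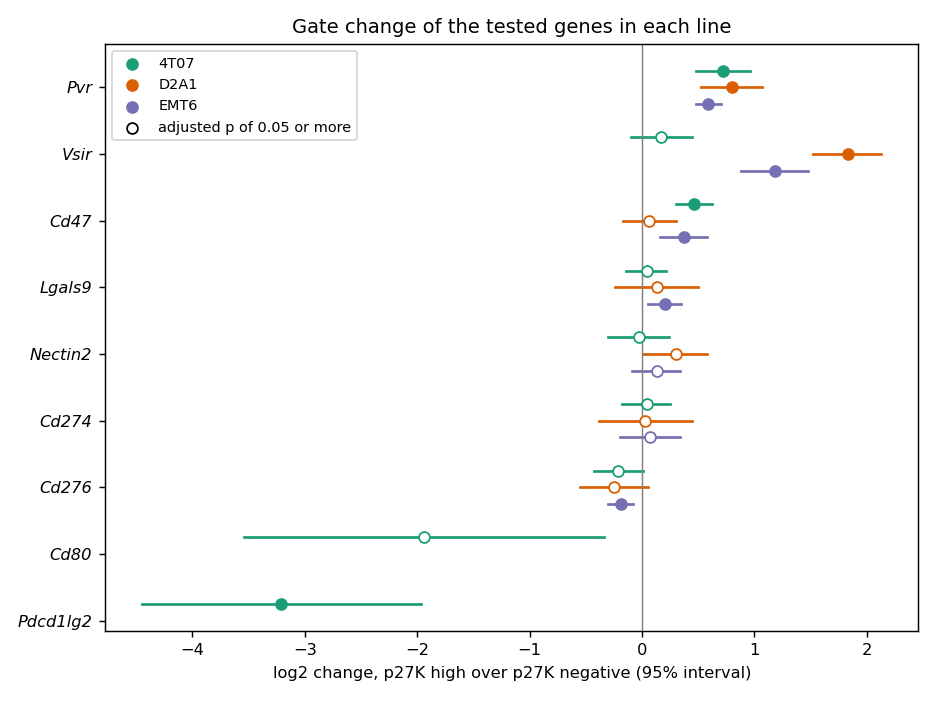
Log2 change of each tested gene in p27K high over p27K negative cells of the same tumours (x axis), with the 95% interval of the edgeR fit, for 4T07, D2A1 and EMT6 (n = 4 tumours each). Filled points passed an adjusted p of 0.05: Pvr is right of 0 in all 3 lines, Vsir reaches 1.83 in D2A1 and 1.18 in EMT6, and Cd274 lies within 0.07 of 0.

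Pvr encodes CD155, the main ligand of TIGIT (chromosome 7, 19903578 to 19921160, minus strand). It rose in p27K high cells of each line, a pattern called in 6.41% of the 10773 genes tested in all 3. In 4T07 tumours 1 to 4 it had 208, 231, 156 and 170 CPM in p27K high cells, against 144, 114, 101 and 96.3 CPM in p27K negative cells of the same tumours. Every p27K high library stood above every p27K negative one. The log2 change was 0.72 ± 0.10 (SE, edgeR quasi-likelihood adjusted p = 0.00125), a 1.65-fold difference.

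In D2A1 Pvr had 98.4, 112, 92.2 and 87.7 CPM in p27K high cells and 44.5, 56.8, 55.1 and 56.3 CPM in p27K negative cells. The gates again did not overlap, and the log2 change was 0.80 ± 0.13 (edgeR adjusted p = 0.000395). Non-overlap with the p27K high gate above was found in 18.8% of genes in 4T07, 19.2% in D2A1 and 16.1% in EMT6. In EMT6, whose tumours carry the numbers 0, 1, 2 and 4 in the column headers, it had 73.3, 105, 111 and 89.4 CPM in p27K high cells, against 50.9, 66.0, 73.9 and 58.7 CPM in p27K negative cells. Here the ranges met, since tumour 0 was lowest in both gates, yet each tumour showed the rise, and the log2 change was 0.59 ± 0.05 (edgeR adjusted p = 1.1e-05).

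Pvr was higher in p27K high cells in 12 of 12 tumours, as were 8.09% of the 13578 genes in the joint fit. Its average log2 change was 0.73 ± 0.06 (95% interval 0.61 to 0.85, edgeR adjusted p = 7.06e-09). The test that all 3 lines changed alike gave an edgeR adjusted p of 0.351. The largest of the line differences, D2A1 minus EMT6, was 0.25 with an interval of -0.05 to 0.54. The genes whose log2 CPM followed Pvr most closely over the 24 libraries, after centring on each line, were Maff (Pearson r of 0.944), Vegfa (0.940) and Slc2a1 (0.935), which encode a small Maf transcription factor, a vascular growth factor and a glucose transporter. These points share 12 tumours and the gate difference, so the coefficients are a description.

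Nectin2 encodes CD112, the partner ligand of the same receptor family, and lies on the same chromosome as Pvr (chromosome 7, 19716644 to 19750483, minus strand). It had 52.8, 38.8, 43.8 and 51.2 CPM in p27K high and 54.7, 50.6, 39.0 and 42.4 CPM in p27K negative 4T07 cells, which overlapped with no common direction. The D2A1 values were 57.4, 50.4, 69.8 and 47.6 CPM in p27K high cells, against 36.0, 38.9, 52.5 and 45 CPM in p27K negative cells, and the EMT6 values 29.3, 47.1, 37.3 and 37.9 CPM in p27K high cells, against 19.7, 48.3, 35.1 and 38.6 CPM in p27K negative cells. It was higher in p27K high cells in 4 of 4 tumours of D2A1 and 2 of 4 of EMT6, and the ranges overlapped in both lines. The log2 changes were -0.03 ± 0.12 in 4T07 (95% interval -0.30 to 0.24), 0.30 ± 0.13 in D2A1 (0.01 to 0.58) and 0.13 ± 0.10 in EMT6 (-0.09 to 0.34), with edgeR adjusted p of 0.864, 0.115 and 0.315. The average of 0.16 ± 0.07 had an adjusted p of 0.073. It was called in DESeq2 (0.18, adjusted p = 0.0438), with RLE scaling (0.17, 0.048), without 4T07 tumour 2 (0.20, 0.0159) and without D2A1 tumour 4 (0.21, 0.0369). Over all alternatives that p ran from 0.0159 to 0.431.

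**Figure D2:**
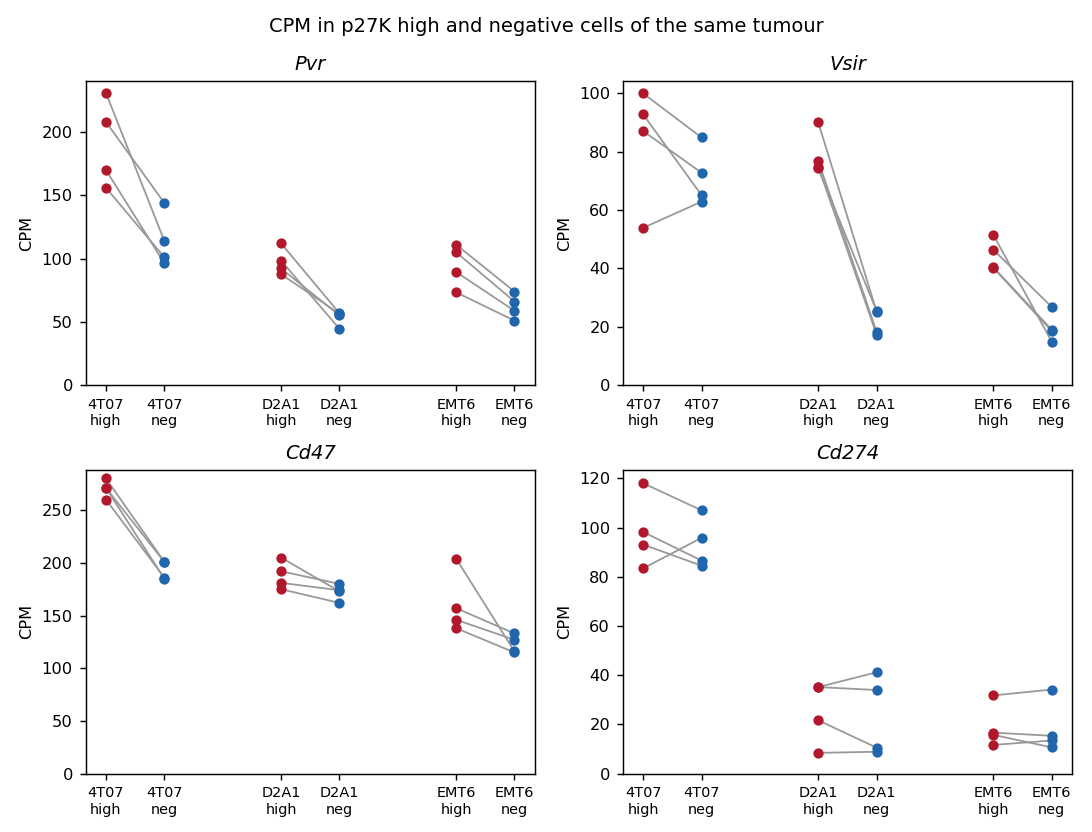
CPM (y axis, from 0) of Pvr, Vsir, Cd47 and Cd274 in p27K high (red) and p27K negative (blue) libraries, with a line joining both gates of a tumour, 4 tumours per line. The Pvr and Cd47 lines slope down from the p27K high to the p27K negative side in all 12 tumours, whereas the Cd274 lines share no common slope.

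Vsir encodes VISTA, a receptor and ligand that restrains T cells (chromosome 10, 60346851 to 60372684, plus strand). The 250 bases before its RefSeq start are shown because its gate change was the largest among the genes called in more than 1 line (GRCm38.p6, chr10:60346601-60346850, plus strand).
Vsir: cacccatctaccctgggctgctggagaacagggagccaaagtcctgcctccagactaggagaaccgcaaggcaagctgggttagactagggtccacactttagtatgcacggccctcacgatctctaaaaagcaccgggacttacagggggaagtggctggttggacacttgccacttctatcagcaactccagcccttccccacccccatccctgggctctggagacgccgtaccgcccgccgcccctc
The following short motifs were searched on both strands of such windows: ACGTG (hypoxia response core), TTCNNNGAA (gamma-activated site), the interferon-stimulated response core (GAAA, any 2 bases and GAAA) and TTTGAA (cell cycle homology region). They occurred in 16.6%, 7.02%, 2.98% and 16.0% of 32851 RefSeq promoter windows. The Vsir window held none of them. Windows were found for 9 of the 10 genes, all but Pvr. Of the other windows, only those of Lgals9, Cd47 and Pdcd1lg2 held a match.

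In D2A1 Vsir had 74.3, 76.9, 74.9 and 90.1 CPM in p27K high cells, against 25.4, 18.3, 17.3 and 25.2 CPM in p27K negative cells. All 4 p27K high libraries lay far above all p27K negative ones, tumour 4 being highest in the p27K high gate. The log2 change was 1.83 ± 0.14 (3.54-fold, edgeR adjusted p = 5.17e-07). In EMT6 the values were 51.5, 40.4, 40.2 and 46.4 CPM in p27K high and 14.9, 19.0, 18.5 and 26.8 CPM in p27K negative cells, again without overlap, and the log2 change was 1.18 ± 0.13 (2.26-fold, adjusted p = 9.03e-05).

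In 4T07 Vsir had 87.1, 53.9, 100 and 92.8 CPM in p27K high cells, against 72.8, 62.9, 84.9 and 65.1 CPM in p27K negative cells. The gates overlapped, with tumour 2 lower in its p27K high library and the other 3 tumours higher. The log2 change of 0.17 ± 0.12 (95% interval -0.10 to 0.44) had an edgeR adjusted p of 0.271. Without tumour 2, whose p27K high library stood apart, the value was 0.30 (adjusted p = 0.00341), and over all alternatives the p ran from 0.00341 to 0.853. The macrophage marker sum was lower in every 4T07 p27K high library than in every p27K negative one, and the part of host cells in the 4T07 levels of Vsir was not tested.

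The 3 lines differed in this gene. The test that all lines changed alike gave an edgeR adjusted p of 0.000148, where 24.5% of genes were called. The D2A1 change exceeded that of 4T07 by 1.69 ± 0.21 on the log2 scale (adjusted p = 6.85e-05, background 23.3%) and the EMT6 change by 0.99 ± 0.19 (0.00334, background 15.0%). D2A1 minus EMT6 was 0.70 ± 0.22 with an adjusted p of 0.102 (background 3.45%). Without EMT6 tumour 0 it was 0.89 with an adjusted p of 0.0187, without 4T07 tumour 2 it was 0.70 with 0.0453, and the range over alternatives was 0.0187 to 0.300. The average change was 1.09 ± 0.09 (adjusted p = 1.17e-08), with p27K high cells higher in 11 of 12 tumours. Thra (r of 0.961) and Tle2 (0.951), which encode a thyroid hormone receptor and a corepressor, were among the 3 genes nearest to Vsir over the same 24 libraries.

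Cd47 encodes the phagocytosis signal read by macrophages (chromosome 16, 49800533 to 49915010, plus strand). Its RefSeq window is shown because it held the only ACGTG match among the 9 windows. The match is the reverse complement of that motif, in capitals, starting 76 bases before the RefSeq start (GRCm38.p6, chr16:49855404-49855653, plus strand). This window lies inside the gene span given above, which comes from GENCODE, and not before it, so the sources place the start differently.
Cd47: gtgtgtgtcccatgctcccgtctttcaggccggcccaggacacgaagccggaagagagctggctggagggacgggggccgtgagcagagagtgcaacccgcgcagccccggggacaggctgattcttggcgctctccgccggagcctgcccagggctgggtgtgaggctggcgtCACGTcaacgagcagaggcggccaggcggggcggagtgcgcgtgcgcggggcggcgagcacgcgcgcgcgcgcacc
In 4T07 it had 280, 271, 260 and 271 CPM in p27K high cells and 201, 201, 186 and 185 CPM in p27K negative cells. The gates were well apart in every tumour, and the log2 change was 0.46 ± 0.07 (1.37-fold, edgeR adjusted p = 0.00171). In EMT6 it had 204, 138, 157 and 146 CPM in p27K high cells, against 116, 115, 133 and 127 CPM in p27K negative cells. The gates did not overlap, and tumour 0 was highest in the p27K high gate. The change was 0.37 ± 0.09 (1.29-fold, adjusted p = 0.00884), and without tumour 0 it was 0.23 (adjusted p = 0.000253), in a range over alternatives of 1.19e-08 to 0.0278.

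In D2A1 Cd47 had 181, 192, 205 and 175 CPM in p27K high and 174, 180, 173 and 162 CPM in p27K negative cells. The ranges overlapped although each tumour was higher in its p27K high library. The change of 0.06 ± 0.11 had an interval of -0.17 to 0.30 and an edgeR adjusted p of 0.703. The intervals of the other lines were 0.30 to 0.62 in 4T07 and 0.16 to 0.58 in EMT6. Whether the lines differed did not pass: D2A1 minus 4T07 was -0.36 ± 0.13 (edgeR adjusted p = 0.0565) and the test of equal change gave 0.111 (0.0285 in DESeq2 and 0.0438 without EMT6 tumour 0). D2A1 minus 4T07 was called under 3 other processing settings and without D2A1 tumour 3 (-0.40, edgeR adjusted p = 0.0437) or EMT6 tumour 0 (-0.36, 0.021), and its p ran from 0.0171 to 0.155. Over the 12 tumours p27K high cells were higher in 12, and the average change was 0.33 ± 0.05 (adjusted p = 6.41e-05).

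The genes nearest to Cd47 over the 24 libraries were Dcn (r of 0.929), which encodes the matrix proteoglycan decorin and is on the list of fibroblast markers, Ppp3ca (0.887), a calcineurin subunit, and Tnfrsf9 (0.881), the receptor 4-1BB. Dcn averaged 1202 ± 410 CPM in p27K high and 274 ± 98.1 CPM in p27K negative cells of 4T07, 44.4 ± 17.4 CPM in p27K high and 44.3 ± 17.4 CPM in p27K negative cells of D2A1, and 43.5 ± 35.0 CPM in p27K high and 9.14 ± 4.10 CPM in p27K negative cells of EMT6 (SD, n = 4). The sum of 10 fibroblast markers was 1611 to 2381 CPM in p27K high and 619 to 798 CPM in p27K negative 4T07 cells. Most of the 4T07 sum was Dcn itself and Pdgfra, with 743 ± 46.2 CPM in p27K high and 325 ± 15.2 CPM in p27K negative cells for Pdgfra. The sum was 887 to 1116 CPM in p27K high and 683 to 891 CPM in p27K negative D2A1 cells, and 6485 to 8517 CPM in p27K high and 5071 to 6783 CPM in p27K negative EMT6 cells. Of the fibroblast markers tested, 3 rose and 2 fell of 9 in 4T07, 2 rose and 5 fell of 9 in D2A1, and 6 rose and none fell of 8 in EMT6. The part of fibroblasts in the Cd47 values was not tested.

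Cd274, which encodes PD-L1 (chromosome 19, 29367455 to 29388095, plus strand), was not called between gates in any line. It had 118, 93.1, 83.4 and 98.2 CPM in p27K high cells of 4T07, against 107, 84.5, 95.8 and 86.6 CPM in p27K negative cells. The D2A1 values were 21.7, 35.2, 8.48 and 35.2 CPM in p27K high cells, against 10.6, 34, 8.92 and 41.2 CPM in p27K negative cells. The EMT6 values were 15.8, 11.7, 31.8 and 16.7 CPM in p27K high cells, against 10.7, 13.5, 34.2 and 15.4 CPM in p27K negative cells. The gates overlapped in each line, while tumours differed: D2A1 tumours 2 and 4 were high in both gates and tumour 3 low in both, and EMT6 tumour 2 was high in both.

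The log2 changes of Cd274 were 0.04 ± 0.09 (95% interval -0.18 to 0.25) in 4T07, 0.03 ± 0.19 (-0.38 to 0.44) in D2A1 and 0.07 ± 0.12 (-0.20 to 0.34) in EMT6, with edgeR adjusted p of 0.775, 0.919 and 0.641. The average was 0.07 ± 0.09 with an interval of -0.11 to 0.25 (adjusted p = 0.517). The mean of both gates ran from 8.70 to 38.2 CPM over D2A1 tumours, a ratio of 4.39, and from 12.6 to 33.0 CPM over EMT6 tumours, a ratio of 2.62. In 4T07 the highest tumour exceeded the lowest by 1.26-fold.

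Gbp6, Gbp2b and Gbp4, guanylate-binding protein genes known as interferon targets, were nearest to Cd274 over the 24 libraries, with r of 0.932, 0.926 and 0.926, and were named after their values were seen. Within D2A1, over 8 libraries of 4 tumours, r was 0.95, 0.968 and 0.973, and within EMT6 it was 0.909, 0.896 and 0.903. In 4T07, where Cd274 varied least, it was 0.759, 0.118 and 0.210. In D2A1 tumour 3 Gbp6 had 1.97 CPM in p27K high and 2.62 CPM in p27K negative cells, and in tumour 4 it had 11.9 CPM in p27K high and 18.8 CPM in p27K negative cells. In EMT6 tumour 2 it had 13.3 CPM in p27K high and 12.6 CPM in p27K negative cells, the highest of that line in both gates. Both libraries of a tumour share its host and its dissociation.

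**Figure D3:**
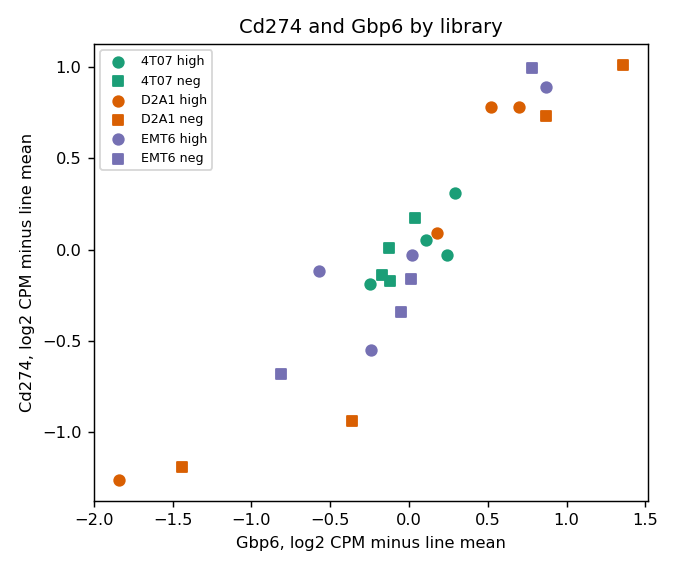
Log2 CPM of Gbp6 (x axis) and Cd274 (y axis) in 24 libraries, each centred on the mean of its line. Colours mark the lines, circles p27K high and squares p27K negative libraries. D2A1 tumour 3 lies lowest in both gates, at -1.26 and -1.19 for Cd274, and EMT6 tumour 2 and D2A1 tumours 2 and 4 lie highest.

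Pdcd1lg2, which encodes PD-L2 and neighbours Cd274 (chromosome 19, 29410919 to 29471161, plus strand), was scarce. In 4T07 it had 0.300, 0, 0.413 and 0.338 CPM in p27K high cells, against 1.54, 1.32, 5.63 and 1.84 CPM in p27K negative cells. Every p27K high library was below every p27K negative one, as for 19.8% of genes, and tumour 3 was highest in the p27K negative gate. The counts summed to 33 in p27K high and 325 in p27K negative cells, and the log2 change was -3.21 ± 0.53 (95% interval -4.45 to -1.97, edgeR adjusted p = 0.00251).

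Cd80, which encodes B7-1 (chromosome 16, 38455561 to 38496335, plus strand), was scarce too and had 0.0749, 1.25, 0.263 and 0.304 CPM in p27K high and 0.674, 0.888, 1.93 and 2.20 CPM in p27K negative 4T07 cells. It was lower in the p27K high library of tumours 1, 3 and 4 and higher in that of tumour 2, so that the gates overlapped. The change of -1.94 ± 0.68 had an edgeR adjusted p of 0.0518. It was called without tumour 2 (-2.94, adjusted p = 9.17e-05), and with all 4 tumours in DESeq2 (-2.14, 0.0062), with total-count scaling (-2.07, 0.041) and with no filter (-1.98, 0.0367). Over all alternatives the p ran from 9.17e-05 to 0.182.

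In 4T07 the p27K negative library of tumour 3, which had the most Pdcd1lg2, also had the largest macrophage marker sum, 1659 CPM, against 756, 957 and 1051 CPM in tumours 1, 2 and 4. In the p27K high gate Pdcd1lg2 had 12, 0, 11 and 10 counts in tumours 1 to 4, too few to order tumours 1, 3 and 4. The marker sums there were 236, 241, 215 and 249 CPM, so this gate cannot show whether the match holds. Cd80 in p27K negative cells was highest in tumour 4. Ptprc had 4.84 to 12.8 CPM in p27K high and 20.3 to 39.9 CPM in p27K negative 4T07 cells, and the sum of 10 dendritic cell markers was 202 to 452 CPM in p27K high and 570 to 966 CPM in p27K negative cells. Most of that sum was Cd74, an MHC class II gene, with 321 ± 113 CPM in p27K high and 728 ± 193 CPM in p27K negative cells (SD, n = 4). Of 5 dendritic markers tested, Cd74, Itgax and Batf3 fell, and Ccr7 (0.66 ± 0.31, edgeR adjusted p = 0.116) and Zbtb46 (0.17 ± 0.21, 0.544) were not called. The part of host cells in these falls was not tested. Outside 4T07 both genes were too low to test between gates within a line. Pdcd1lg2 averaged 0.405 ± 0.291 CPM in p27K high and 0.895 ± 0.483 CPM in p27K negative D2A1 cells (SD, n = 4). In EMT6 it had 1 count in all p27K high and none in all p27K negative libraries, and a count of 0 over the 4 libraries allows up to 0.0447 CPM before TMM scaling (3 counts, counting error only). Cd80 averaged 0.526 ± 0.143 CPM in p27K high and 0.685 ± 0.212 CPM in p27K negative EMT6 cells and was lower in the p27K high gate of 4 of 4 tumours. In D2A1 it had 7 counts in p27K high and 2 in p27K negative libraries, or 0.121 CPM on average in p27K high and 0.192 in p27K negative cells, too few to compare.

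**Figure D4:**
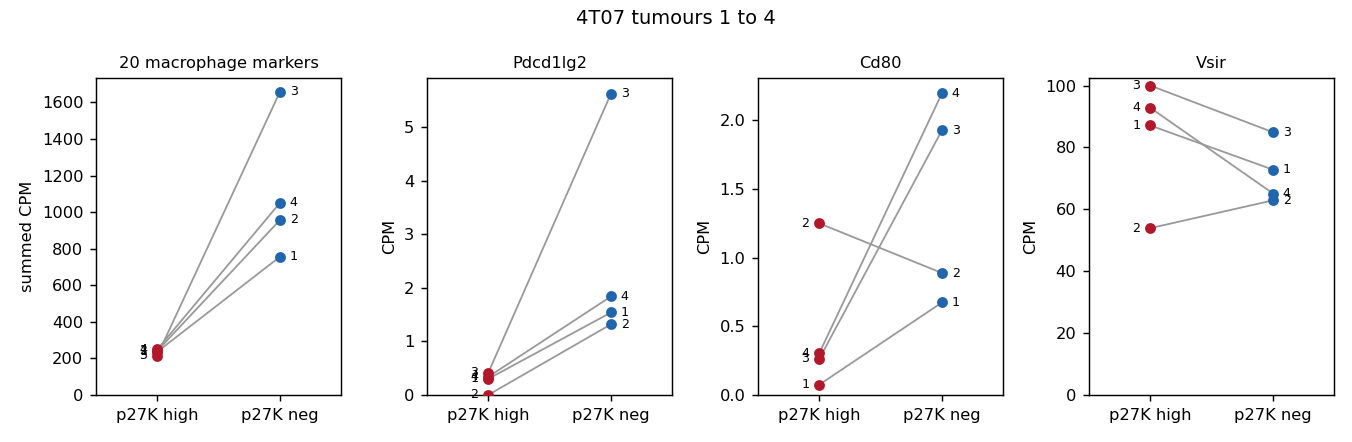
Summed CPM of 20 macrophage markers and CPM of Pdcd1lg2, Cd80 and Vsir (y axes, from 0) in 4T07 tumours 1 to 4, p27K high on the left and p27K negative on the right of each panel, a line per tumour. The marker sum stays between 215 and 249 in p27K high and between 756 and 1659 in p27K negative cells, and tumour 3 is highest in the p27K negative gate for the markers and for Pdcd1lg2. In the p27K high gate tumour 3 is lowest for the markers, and Pdcd1lg2 rests on 12 counts or fewer per library.

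Cd276, which encodes B7-H3 (chromosome 9, 58524298 to 58555437, minus strand), was lower in p27K high cells by a small amount. In EMT6 it had 48.7, 49.8, 49.0 and 49.4 CPM in p27K high cells and 54.8, 57.7, 55.0 and 55.7 CPM in p27K negative cells. The gates did not overlap, as for 20.4% of genes with the p27K high gate below, and the log2 change was -0.19 ± 0.05 (0.879-fold, edgeR adjusted p = 0.0115). This call was lost without tumour 2 (adjusted p = 0.0559), without tumour 4 (0.0519) and in DESeq2 (0.0660), with a range of 0.00589 to 0.0660.

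In 4T07 Cd276 had 44.2, 52.2, 44.9 and 46.5 CPM in p27K high cells, against 59.4, 55.7, 49.0 and 48.9 CPM in p27K negative cells. In D2A1 it had 27.3, 28.9, 23.6 and 25.1 CPM in p27K high cells, against 28.3, 36.3, 25.2 and 29.5 CPM in p27K negative cells. The ranges overlapped in both lines, and the changes of -0.21 ± 0.09 and -0.25 ± 0.14 had edgeR adjusted p of 0.107 and 0.203. In 4T07 it was called without tumour 2 (-0.25, adjusted p = 0.0179) and with total-count scaling (-0.35, 0.0237), in a range of 0.0179 to 0.423. Each of the 12 tumours was lower in its p27K high library, as were 8.79% of genes in the joint fit, and the average change was -0.18 ± 0.05 (adjusted p = 0.00674).

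Vtcn1, which encodes B7-H4 (chromosome 3, 100825459 to 100896922, plus strand), was close to absent outside D2A1 and was tested in no line. In D2A1 its counts summed to 50 in p27K high cells and to 1 in p27K negative cells, whose libraries were smaller. Each p27K high library had between 0.402 and 1.29 CPM, and among the p27K negative ones tumour 2 alone had a count, at 0.448 CPM. The ratio of CPM before TMM scaling was 17.1 with a 95% counting interval of 2.93 to 688, which covers counting error only. Most p27K negative counts of all genes came from tumour 4, and without that tumour, a setting added after seeing the data, the ratio was 4.25 with an interval of 0.714 to 172. There was 1 count in p27K high and 2 in p27K negative 4T07 cells and none in EMT6, where a count of 0 allows up to 0.0464 such CPM in p27K high and 0.0447 in p27K negative cells.

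Lgals9, which encodes galectin-9 (chromosome 11, 78962974 to 78984946, minus strand), held the only match of the interferon-stimulated response core among the 9 windows. It is shown for the reverse complement of that motif, in capitals, starting 55 bases before the RefSeq start (GRCm38.p6, chr11:78984925-78985174, minus strand).
Lgals9: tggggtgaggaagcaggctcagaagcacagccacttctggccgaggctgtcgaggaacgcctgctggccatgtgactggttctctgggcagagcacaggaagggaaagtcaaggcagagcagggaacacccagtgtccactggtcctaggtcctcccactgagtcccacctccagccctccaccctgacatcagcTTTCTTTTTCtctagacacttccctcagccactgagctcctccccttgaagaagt
In EMT6 it had 112, 108, 120 and 134 CPM in p27K high cells and 82.3, 102, 116 and 113 CPM in p27K negative cells. Each tumour was higher in its p27K high library although the ranges overlapped, and the log2 change was 0.20 ± 0.07 (edgeR adjusted p = 0.0354). The call was lost without tumour 4 (0.19, adjusted p = 0.123) and in a fit without the tumour block (0.19, 0.217), in a range of 0.00904 to 0.217.

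In 4T07 Lgals9 had 103, 99.4, 86.9 and 111 CPM in p27K high and 97.6, 104, 82.5 and 98.7 CPM in p27K negative cells. In D2A1 it had 26.4, 26.9, 22.6 and 28.9 CPM in p27K high and 23.3, 15.7, 24.7 and 28.4 CPM in p27K negative cells. The gates overlapped in both lines, with changes of 0.04 ± 0.07 (95% interval -0.14 to 0.21) and 0.13 ± 0.17 (-0.24 to 0.50) and edgeR adjusted p of 0.723 and 0.610. The average of 0.15 ± 0.06 had an adjusted p of 0.057, which ran from 0.0213 to 0.435 over alternatives. It passed in DESeq2 (0.16, 0.0213), with RLE scaling (0.16, 0.038) and without 4T07 tumour 2 (0.16, 0.0341), D2A1 tumour 3 (0.17, 0.0278) or D2A1 tumour 4 (0.19, 0.0434).

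Levels of different genes were compared as CPM per kilobase of exon, with the exon length of GENCODE vM21. Lgals9 and Cd47 led in 4T07 and EMT6, and Cd47 led in D2A1. In p27K high 4T07 cells Lgals9 averaged 46.9 ± 4.73 and Cd47 43.1 ± 1.34 CPM per kilobase (SD, n = 4), which overlapped, followed by Pvr at 31.2 ± 5.62 and Cd274 at 27.1 ± 3.97, which overlapped with each other. Vsir, Nectin2 and Cd276 came next, at 16.7 ± 4.08, 13.4 ± 1.87 and 12.8 ± 0.990, and each overlapped with its neighbour. In p27K negative 4T07 cells the order differed at Cd274, at 25.8 ± 2.82, above Pvr at 18.6 ± 3.47, and at Cd276, at 14.6 ± 1.42, above Vsir at 14.2 ± 1.98, and both pairs overlapped.

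In p27K high D2A1 cells Cd47, at 30.0 ± 2.08 CPM per kilobase, stood clear of Nectin2 at 16.1 ± 2.83, Pvr at 15.9 ± 1.69 and Vsir at 15.8 ± 1.48, which did not separate. Lgals9 at 12.3 ± 1.24 was below them, and Cd276 at 7.17 ± 0.640 and Cd274 at 6.94 ± 3.54 overlapped. In p27K negative D2A1 cells Cd47 averaged 27.5 ± 1.22, and Vsir, at 4.30 ± 0.863, was the lowest of these 7 genes. In EMT6 Lgals9 stood alone at the top, at 55.5 ± 5.45 in p27K high and 48.3 ± 7.13 in p27K negative cells, before Cd47 at 25.7 ± 4.65 in p27K high and 19.6 ± 1.36 in p27K negative cells. Vsir averaged 8.90 ± 1.08 CPM per kilobase in p27K high and 3.95 ± 1.00 in p27K negative cells there, and Cd274 5.25 ± 2.44 in p27K high and 5.09 ± 2.96 in p27K negative cells. Pdcd1lg2, Cd80 and Vtcn1 were under all other genes in every group, with the highest mean, 1.32 ± 1.04, for Pdcd1lg2 in p27K negative 4T07 cells.

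**Figure D5:**
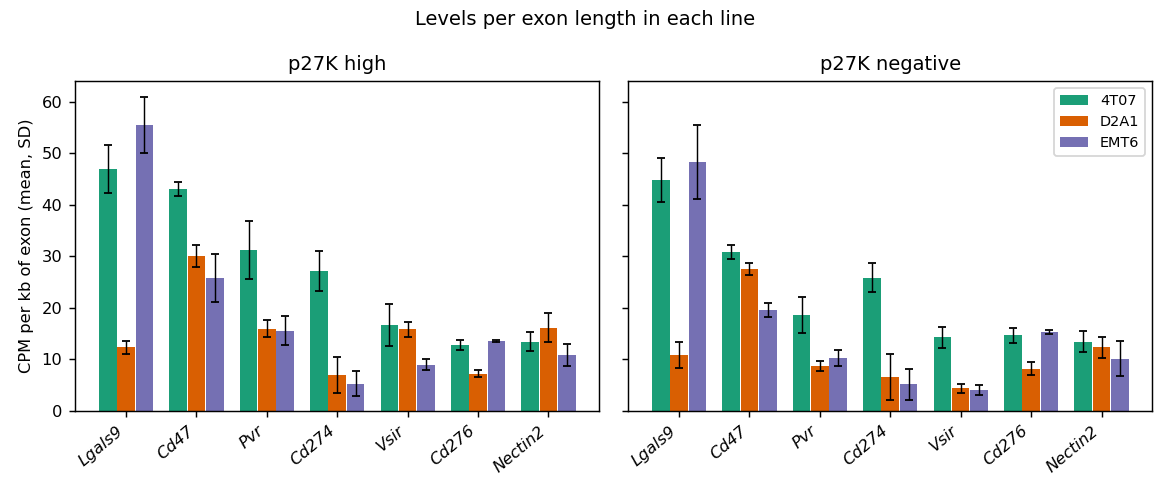
Mean CPM per kilobase of exon (bars from 0, with SD, n = 4 tumours) of the 7 more abundant genes in 4T07, D2A1 and EMT6, p27K high cells in the left panel and p27K negative cells in the right. Lgals9 is 12.3 or lower in D2A1 and 44.8 or higher in the other lines, and Cd274 is 25.8 or higher in 4T07 and 6.94 or lower elsewhere.

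The lines differed in most of these genes within a gate, as they did in most genes: 66.9%, 53.5% and 64.9% of genes were called in the p27K high gate for 4T07 over EMT6, D2A1 over EMT6 and 4T07 over D2A1, and 75.6%, 59.3% and 66.1% in the p27K negative gate. Since each line was sequenced in its own run, the run may be part of any such difference. Counts were also given for 24978 symbols in 4T07, against 49038 in D2A1 and in EMT6. The 4T07 differences therefore cannot be told apart from the gene set counted either. Cd274 in p27K high cells averaged 98.1 ± 14.4 CPM in 4T07, 25.1 ± 12.8 in D2A1 and 19.0 ± 8.84 in EMT6. The 4T07 libraries lay above all others, as 62.2% and 58.3% of genes did not overlap with EMT6 and D2A1, with 3.98-fold more than D2A1 and 5.09-fold more than EMT6 (edgeR adjusted p = 0.000261 and 6.81e-05), while D2A1 over EMT6 was not called (1.28-fold, 0.429). In p27K negative cells the 4T07 excess was 3.35-fold over D2A1 (0.000871) and 5.05-fold over EMT6 (2.28e-05).

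Lgals9 in p27K high cells averaged 100 ± 10.1 CPM in 4T07, 26.2 ± 2.66 in D2A1 and 119 ± 11.7 in EMT6. D2A1 was lowest, by 3.94-fold under 4T07 and 4.71-fold under EMT6 (edgeR adjusted p = 6.36e-09 and 3.35e-09), and 3.95-fold and 4.26-fold in p27K negative cells. In p27K high cells 4T07 over EMT6 was 0.837-fold and not called (edgeR adjusted p = 0.0605). It was called in DESeq2 (0.0228), with total-count (0.0256) or RLE scaling (0.0401) and with the stricter filter (0.0439). Leaving out D2A1 tumour 3 (0.0259) or 4 (0.048) also gave a call. Cd276 was likewise lowest in D2A1, at 26.2 ± 2.34 CPM in p27K high cells, against 46.9 ± 3.62 in 4T07 and 49.2 ± 0.506 in EMT6 (4T07 over D2A1 1.85-fold, adjusted p = 6.78e-06). Pvr was 2.03-fold higher in 4T07 than in D2A1 in p27K high cells and 2.11-fold in p27K negative cells (adjusted p = 7.51e-05 and 1e-05), and D2A1 over EMT6 was not called in either gate (0.923 and 0.237).

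The line order of Vsir depended on the gate. In p27K high cells 4T07 over D2A1 was 1.09-fold and not called (edgeR adjusted p = 0.524; 0.0329 without 4T07 tumour 2), and both exceeded EMT6, by 1.85-fold and 1.70-fold (0.000311 and 0.00153). In p27K negative cells 4T07 exceeded D2A1 3.20-fold and EMT6 3.60-fold (1.19e-06 and 6.27e-08), and D2A1 over EMT6 was not called (0.463). The 4T07 p27K negative libraries, with 71.4 ± 9.93 CPM, are also those with the most macrophage marker RNA. Cd47 in p27K high cells was 1.49-fold higher in 4T07 than in D2A1 and 1.67-fold higher than in EMT6 (0.00102 and 0.000122). In p27K negative cells 4T07 over D2A1 was 1.12-fold (0.0582; 0.0475 without EMT6 tumour 0 and 0.0472 with no filter), although their CPM ranges did not overlap, as in 57.4% of genes, and D2A1 exceeded EMT6 1.4-fold (3.9e-05).

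Nectin2 differed least: in p27K high cells D2A1 over EMT6 was 1.42-fold (edgeR adjusted p = 0.0211; 0.0507 without EMT6 tumour 0, the largest over alternatives), and no other pair was called in either gate. With total-count scaling 4T07 over D2A1 was called in p27K high cells (log2 -0.44, 0.0308) and 4T07 over EMT6 in p27K negative cells (0.47, 0.0398), the second also without EMT6 tumour 1 (0.58, 0.0156). Among the scarce genes, Pdcd1lg2 in p27K negative cells was at least 57.1-fold higher in 4T07 and at least 21.0-fold higher in D2A1 than in EMT6, taking 3 counts over the EMT6 group as the floor. These bounds allow no counting error for the observed 325 counts in 4T07 and 19 in D2A1. Without 4T07 tumour 3, which held 166 of the 325 counts, the 4T07 bound was 35.9-fold. Pdcd1lg2 in p27K negative cells was 2.9-fold higher in 4T07 than in D2A1 but not called (edgeR adjusted p = 0.0546). It was called without 4T07 tumour 1 (0.0382), 2 (0.0288) or 4 (0.0492), without EMT6 tumour 0 (0.0498) and with no filter (0.0444). The range over alternatives was 0.0288 to 0.188. Vtcn1 in p27K high cells was at least 18.2-fold higher in D2A1, from 50 observed counts, than in EMT6 on the same floor. Without EMT6 tumour 2 the D2A1 bounds were 15.6-fold for Pdcd1lg2 and 12.6-fold for Vtcn1. Cd80 in p27K negative cells averaged 1.42 ± 0.756 CPM in 4T07, 0.192 ± 0.344 in D2A1 and 0.685 ± 0.212 in EMT6. All 3 of its line pairs were called, with 14.1-fold for 4T07 over D2A1 (0.00148), but on 2 counts in all D2A1 p27K negative libraries. Both D2A1 pairs lost their call without D2A1 tumour 4 (adjusted p = 0.0521 for 4T07 over D2A1, 0.276 for D2A1 over EMT6). The 4T07 over EMT6 call was lost without 4T07 tumour 3 or 4 or EMT6 tumour 0, 1 or 4 (0.0624 to 0.139) and in DESeq2 (0.0907). The macrophage marker sum in p27K negative cells was 756 to 1659 CPM in 4T07. It was 73 to 136 CPM in D2A1 and 37.2 to 52.1 CPM in EMT6. The part of host cells in the line differences of Pdcd1lg2 and Cd80 was not tested.

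Other genes of these pathways were taken from 7 lists of partners, regulators and relatives, chosen by function with earlier results of these data known. Of all genes tested, 45.7%, 29.5% and 49.2% were called in 4T07, D2A1 and EMT6, with 22.1%, 14.9% and 24.1% as rises. The counts of each list stand beside these shares and were not tested against them. Genes too low to test differed between lines, so the values of a list do not always cover the same genes. Among 14 receptor genes of the 10 ligands, 7 could be tested in 4T07, 5 in D2A1 and 2 in EMT6, of which 1, 2 and 1 rose and 4, 1 and 0 fell. Rgmb, a receptor of PD-L2, rose by 1.27 ± 0.11, 1.23 ± 0.12 and 0.89 ± 0.05 in 4T07, D2A1 and EMT6. Tigit, the receptor of CD155 and CD112 and normally a lymphocyte gene, had 2.62 ± 0.284 CPM in p27K high and 9.16 ± 1.28 CPM in p27K negative 4T07 cells. It had 1.14 ± 0.737 CPM in p27K high and 3.68 ± 1.68 CPM in p27K negative D2A1 cells, and 82.8 ± 11.9 CPM in p27K high and 92.8 ± 11.0 CPM in p27K negative EMT6 cells. It fell in 4T07 and D2A1, and EMT6 was not called (-0.17 ± 0.07, edgeR adjusted p = 0.052). The sum of 12 T and NK cell markers was 10.9 to 13.4 CPM in p27K high and 11.8 to 15.7 CPM in p27K negative EMT6 cells, with 6 of the 12 at no count in each gate and most of the sum from Lck. Sirpa, the receptor of CD47, had 6.81 ± 1.64 CPM in p27K high and 49.1 ± 15.0 CPM in p27K negative 4T07 cells, where it fell by 2.84 ± 0.27 beside the macrophage markers. In D2A1 it rose by 0.96 ± 0.12, with 104 ± 10.8 CPM in p27K high and 51.0 ± 10.5 CPM in p27K negative cells, and in EMT6 it was under 1 CPM.

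Of 25 genes of phagocytosis and CD47 signalling, which include Sirpa from the receptors and B2m, Calr and Pdia3 from the MHC class I genes, 5 rose and 6 fell of 22 tested in 4T07, 6 rose and none fell of 20 in D2A1, and 7 rose and 6 fell of 18 in EMT6. Their median log2 changes were 0.02, 0.21 and 0.08. Thbs1, which encodes the secreted CD47 ligand thrombospondin-1, rose by 1.09 ± 0.08, 0.70 ± 0.13 and 0.82 ± 0.04 in 4T07, D2A1 and EMT6. It averaged 953 ± 267 CPM in p27K high and 437 ± 110 CPM in p27K negative 4T07 cells. Thbs2, its relative, rose by 0.97 ± 0.14 in 4T07 and 1.71 ± 0.07 in EMT6, with -0.09 ± 0.27 in D2A1 (edgeR adjusted p = 0.839). Anxa1, which encodes the phospholipid-binding protein annexin A1, rose by 0.58 ± 0.07 in 4T07 and 0.31 ± 0.04 in EMT6, with 0.32 ± 0.12 in D2A1 (0.0639).

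Of 13 nectins, nectin-like molecules and NK cell ligands, none rose and 3 fell of 11 tested in 4T07, 3 rose and 2 fell of 8 in D2A1, and 4 rose and 3 fell of 10 in EMT6 (medians 0.01, 0.34 and 0.15). Ulbp1, a ligand of the NK cell receptor NKG2D, fell in each line, with log2 changes of -2.63 ± 0.09, -2.32 ± 0.24 and -1.49 ± 0.09 in 4T07, D2A1 and EMT6. It averaged 14.1 ± 0.694 CPM in p27K high and 85.4 ± 4.87 CPM in p27K negative 4T07 cells. H2-T23, which encodes the Qa-1 molecule read by NKG2A, rose by 0.78 ± 0.17 in D2A1 and 0.52 ± 0.10 in EMT6, with 0.21 ± 0.08 in 4T07 (edgeR adjusted p = 0.0667). Clec2d, a ligand of inhibitory NKR-P1 receptors, rose by 0.89 ± 0.28 in D2A1 and 1.14 ± 0.13 in EMT6, with 0.18 ± 0.13 in 4T07 (0.311).

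Of 18 other ligands of T cell control, 2 rose and 6 fell of 11 tested in 4T07, 3 rose and 1 fell of 6 in D2A1, and 1 rose and 3 fell of 7 in EMT6 (medians -1.02, 0.54 and 0.14). These medians do not cover the same genes, since some were tested in 4T07 only. All 20 macrophage markers fell in 4T07 too, and the part of host cells in the 4T07 falls of this list was not tested. Hmgb1, an abundant chromatin protein that is also a TIM-3 ligand, fell in each line, with log2 changes of -1.13 ± 0.13, -1.01 ± 0.11 and -1.01 ± 0.04 in 4T07, D2A1 and EMT6. Lgals3, which encodes galectin-3, rose by 0.36 ± 0.07, 0.73 ± 0.16 and 0.60 ± 0.08. Tnfsf9, the ligand of 4-1BB, rose by 0.83 ± 0.10 in 4T07 and 0.71 ± 0.22 in D2A1, with 0.14 ± 0.08 in EMT6 (edgeR adjusted p = 0.19).

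Of 24 regulators of PD-L1, 22 were tested in each line, with 8 rises and 3 falls in 4T07, 4 and 2 in D2A1 and 9 and 4 in EMT6 (medians 0.01, 0.07 and 0.10). Cmtm6, which keeps PD-L1 protein on the cell surface, rose by 0.40 ± 0.09 in 4T07 and 0.44 ± 0.12 in D2A1, with 0.15 ± 0.06 in EMT6 (edgeR adjusted p = 0.0816). Gsk3b, a kinase that marks PD-L1 protein for breakdown, rose by 0.67 ± 0.08 in 4T07 and 0.27 ± 0.06 in EMT6, with 0.04 ± 0.13 in D2A1 (0.865). Zfp36, which encodes the transcript-destabilising protein tristetraprolin, rose by 0.49 ± 0.11 in D2A1 and 0.35 ± 0.07 in EMT6, with -0.08 ± 0.07 in 4T07 (0.428). RNA levels do not measure PD-L1 protein.

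Of 22 genes of interferon gamma reception, signalling and response, 6 rose and 6 fell of 22 tested in 4T07, 3 rose and 4 fell of 21 in D2A1, and 9 rose and 4 fell of 22 in EMT6 (medians -0.10, 0.01 and 0.11). Stat3, a cytokine signalling factor, rose by 0.51 ± 0.07, 0.61 ± 0.11 and 0.43 ± 0.05 in 4T07, D2A1 and EMT6. Cxcl10, a chemokine that draws T cells, fell in the same order, with -1.76 ± 0.11, -0.60 ± 0.18 and -1.02 ± 0.12. Its relative Cxcl9 fell in 4T07 (-2.16 ± 0.20) and EMT6 (-1.09 ± 0.27) and was too low to test in D2A1. Of 16 genes of MHC class I presentation, none rose and 8 fell in 4T07, 1 rose and 2 fell in D2A1, and 2 rose and 8 fell in EMT6 (medians -0.22, -0.13 and -0.13). Psmb9, an immunoproteasome subunit, fell in 4T07 (-1.12 ± 0.15) and EMT6 (-0.25 ± 0.05), with -0.47 ± 0.18 in D2A1 (edgeR adjusted p = 0.0676). The peptide transporter gene Tap1 fell in 4T07 (-0.88 ± 0.12) and EMT6 (-0.27 ± 0.05), with -0.17 ± 0.15 in D2A1 (0.439). B2m, the class I light chain gene, rose by 0.30 ± 0.04 in EMT6, with 0.48 ± 0.18 in 4T07 and 0.27 ± 0.14 in D2A1 (0.0615 and 0.152).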

How the data were processed

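Cells of digested tumours were stained for CD45 and with DAPI and sorted on mVenus, and GENEWIZ sequenced the RNA and counted genes, per the labels' protocols. The submitters' processing notes name mm10 and DESeq2. No aligner, counter, gate setting, library kit or strandedness is given in the sources used here, so overlapping and antisense genes may share reads. The authors deposited raw whole-number counts in a table per line. Unnamed entries (at most 0.0109% of a library's counts), totals and 4 date-like symbols per table were left out.

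Counts were tested with the edgeR 4.0.16 quasi-likelihood test (limma 3.58.1, R 4.3.3) after the default filter on low counts, with TMM factors and Benjamini-Hochberg adjustment over all genes tested. Each line was fitted with the tumour as a block. A joint fit on 24034 shared symbols, blocked on 12 tumours, gave the average and the line differences, and 12 libraries of 1 gate gave level differences between lines. CPM came from TMM scaling over 24 libraries. The standard error is the change over the square root of F.

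The labels give the tumour of each 4T07 and D2A1 library, which pairs its gates. The EMT6 columns are numbered 0, 1, 2 and 4, unlike the titles, and were paired by these numbers because same-numbered libraries deviated together over 5000 genes (r of 0.615, 0.574, 0.813 and 0.648). The r values were 0.801, 0.703, 0.609 and 0.195 for 4T07, and 0.112, 0.210, 0.0834 and 0.294 for D2A1.

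All 10 genes are named whatever their values. From each list of related genes the 3 with the smallest average p are named, with the members left out, and for the 3 members with the smallest average p the 3 genes of highest r (log2 CPM, prior count of 2). One of the genes nearest to Vsir is not reported here. The genes nearest to Cd274, and other markers given beside a result, were chosen after their values were seen. Members and lists were chosen with earlier results of these data known. Alternatives were DESeq2 1.42.0, scaling by total count and by RLE, no filter and a filter of 1 CPM in every library of a gate, no tumour block, and each tumour left out; leaving tumours out of ratios and bounds of scarce genes was added after seeing the data. Gene positions come from GENCODE vM21 (GRCm38), counted from 1, and promoter sequences are from RefSeq.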

Additional observations from a re-analysis of the deposited data

Results flagged for a closer look

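Of 66 groups of 4 libraries checked, 7 held a library farther from its group than Dixon's criterion allows. The criterion flags about 1 in 20 groups of normally distributed values by chance. A group with 1 count in a single library and 0 in the others is always flagged, so the number flagged cannot be set against that rate. In 4T07 these were Pdcd1lg2 in p27K negative cells of tumour 3, at 5.63 CPM, and Vtcn1 in p27K high cells of tumour 2, at 0.0417 CPM, which is 1 count. In EMT6 Pdcd1lg2 had 0.0526 CPM in p27K high cells of tumour 2, also 1 count. In D2A1 Vsir had 90.1 CPM in p27K high cells of tumour 4. In p27K negative cells of D2A1 tumour 1, Cd80 had 0.706 CPM, which is 1 count, and Pvr 44.5 CPM. Vtcn1 had 0.448 CPM, also 1 count, in p27K negative cells of D2A1 tumour 2. These p27K negative libraries held few counts.

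The gate change of Vsir differed between lines by a test of the difference itself. It was larger in D2A1 than in 4T07 by 1.69 on the log2 scale and larger in EMT6 than in 4T07 by 0.99.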

How the results depend on the processing

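The rises of Pvr in each line, of Vsir in D2A1 and EMT6 and of Cd47 in 4T07 and EMT6, the fall of Pdcd1lg2 in 4T07 and the 2 differences of Vsir between lines kept their direction and call under every alternative run. Of 1472 tested values of single genes under alternatives, 1392 kept both, 14 lost a call, 46 gained one and 20 changed sign, and of 444 counts of calls 31 moved by over 1.5 times. The cause was not tested.

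Leaving out a tumour gave 3698 to 7727 called genes in 4T07 and 2444 to 5051 in D2A1. Called members ran from 3 to 6 in 4T07, 3 to 5 in EMT6 and 4 to 7 in the average. For the differences between lines, called genes ran from 2441 to 3142 (D2A1 minus 4T07), 1182 to 2813 (EMT6 minus 4T07) and 240 to 891 (D2A1 minus EMT6), and called members from 1 to 2, 1 to 2 and 0 to 1; the test of equal change called 1 to 2 members and 2506 to 3733 genes. Without the replicate block these counts of genes were 1673, 869, 93 and 1607, and the 4T07, D2A1 and EMT6 gate changes had 4407, 3563 and 4471 called genes. DESeq2 called 719 genes for D2A1 minus EMT6. D2A1 minus 4T07 had 2 called members under DESeq2, RLE scaling and the stricter filter, as had the test of equal change under DESeq2.

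With total-count scaling the median over all 4T07 genes was -0.14, so that 33.2% of calls were higher in p27K high cells, against 48.3%, and 5 members were called there. Under it Cd274 and Lgals9 in 4T07 were each -0.10, the average of Cd274 was -0.01, Cd47 for EMT6 minus 4T07 was 0.06, Pvr for D2A1 over EMT6 in p27K high cells was 0.13 (0.00 without a filter), Vsir for 4T07 over D2A1 there was -0.09, and Cd276 for 4T07 over EMT6 in p27K negative cells was 0.01. For joint contrasts the share of higher calls moved too, to 70.9% and 82.7% for D2A1 and EMT6 minus 4T07.

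With a tumour left out, Cd274 ran from 0.00 to 0.13 in 4T07, -0.15 to 0.22 in D2A1 and -0.07 to 0.16 in EMT6, and was -0.12 in D2A1 without the block. Lgals9 ran from -0.03 to 0.20 in D2A1, Nectin2 from -0.12 to 0.09 in 4T07 and 0.00 to 0.19 in EMT6, and Pvr for D2A1 over EMT6 in p27K high cells from -0.11 to 0.06. Low depth of 3 D2A1 p27K negative libraries limits what can be said of scarce genes there.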
